A study of Saccharomyces cerevisiae with 7 samples.

Results

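The positions described here are those that lie past the stall on 3 PGK1 reporters, that is, every position with at least 1 read and a number above 1040 on the reporter with a stem loop (SL) or above 950 on the reporters with 12 CGA or 12 AAA codons. Over 7 libraries of *Saccharomyces cerevisiae* they came to 1781 listed positions of 4570. Of the listed positions of each SL library they were 223 of 685 in *rps3* cells, 232 of 669 in *asc1* cells and 290 of 747 in *dom34Δ* cells. With (CGA)12 they were 294 of 658 in *rps3* cells and 314 of 668 in *dom34Δ* cells, and with (AAA)12 they were 149 of 503 in *rps3* cells and 279 of 640 in *dom34Δ* cells. The numbers 1040 and 950 are where the study placed the stem loop and the codon repeats in PGK1 (YCR012W, the phosphoglycerate kinase gene), and distances below are counted from them. Whether the inserts begin exactly there in the numbering was not stated, so ends called past the stall may lie before or inside one. Beyond the need for 1 read, the size of the counts was not used to choose these positions.

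Reads were counted at the 3’-ends of RNA fragments that hold the site of a primer at position 585 of PGK1, which marks where the 5’-fragments of no-go decay (NGD) end. All cells were BY4741 *ski2Δ* and grew in defined medium without uracil, with galactose and raffinose, and the reporters were driven by the GAL1 promoter. In addition to *ski2Δ*, the cells carried *rps3* (R116A/R117A), *asc1* (R38D/K40E) or *dom34Δ*, where *rps3* and *dom34Δ* were combined with each of the 3 reporters and *asc1* with SL only. Each condition had 1 library, for which RNA of 2 or more biological replicates had been pooled, and no spread between replicates can be given. Cells with *ski2Δ* alone and a PGK1 reporter with no stall were not analysed here. Since the files hold only reads placed on the reporters, the *dom34Δ* deletion and the point mutations could not be checked in them.

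In NGD, an mRNA on which ribosomes have stalled is cut by an endonuclease, and the cut is known to fall mostly upstream of the stall, behind the lead ribosome. The 5’-fragments are degraded from their 3’-ends by the cytoplasmic exosome with the Ski complex, whose helicase is Ski2 (YLR398C), so that they accumulate in *ski2Δ* cells. Rps3 (YNL178W) lines the tunnel through which the mRNA enters the small ribosomal subunit, Asc1 (YMR116C) sits on the small subunit and is needed for quality control of stalled ribosomes, and Dom34 (YNL001W) takes apart ribosomes that cannot go on. The primer site is also part of the mRNA of the cells' own PGK1 gene, which has no stall, and its part in the reads past the stall was not tested.

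The inserted repeats are shown because the codon-repeat reporters differ in them and in the 3’-ends just past the stall. Each is 36 nt long and is written out from its label, with no letter in capitals.
(CGA)12: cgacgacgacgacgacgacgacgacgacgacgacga
(AAA)12: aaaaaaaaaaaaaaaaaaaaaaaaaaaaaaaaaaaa

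Few of the reads lay past the stall. With SL they were 6915 of 2083425 reads in *rps3* cells (0.332%, 95% Wilson interval 0.324 to 0.340%), 2071 of 3308959 in *asc1* cells (0.0626%, 0.0600 to 0.0653%) and 20532 of 4867111 in *dom34Δ* cells (0.422%, 0.416 to 0.428%). With (CGA)12 they were 8557 of 648128 in *rps3* cells (1.32%, 1.29 to 1.35%) and 16737 of 2130250 in *dom34Δ* cells (0.786%, 0.774 to 0.798%). With (AAA)12 they were 4770 of 606108 in *rps3* cells (0.787%, 0.765 to 0.810%) and 18332 of 2627913 in *dom34Δ* cells (0.698%, 0.688 to 0.708%). The 3 SL libraries were below all 4 codon-repeat libraries, with the *asc1* library far below the rest. These intervals cover counting error only, since reads after PCR are not independent molecules, and a count of 3 reads corresponds to between 0.000062% and 0.000495% of a library.

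The SL libraries had a geometric mean share 0.237 times that of the codon-repeat libraries (mean log2 difference -2.08, exact two-sided permutation test, p = 0.0571, the smallest that 3 against 4 libraries allow). Libraries of 1 kind of reporter differ in strain, and *asc1* cells carried SL only, so they are not replicates of a condition. Without the *asc1* library the log2 difference was -1.22. This order rests on the denominator. Relative to the reads in the last 100 nt up to the stall position, reads past the stall came to 5.90% in *rps3*, 1.46% in *asc1* and 11.9% in *dom34Δ* cells with SL, to 2.42% in *rps3* and 1.99% in *dom34Δ* cells with (CGA)12, and to 1.55% in *rps3* and 1.67% in *dom34Δ* cells with (AAA)12. On that scale the *rps3* and *dom34Δ* SL libraries were above all codon-repeat libraries, and the *asc1* library was again the lowest.

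On the log2 scale, the share in *rps3* cells differed from that in *dom34Δ* cells by -0.35 with SL, 0.75 with (CGA)12 and 0.17 with (AAA)12, a mean of 0.19 with 2 of 3 pairs higher in *rps3* (exact two-sided paired permutation test, p = 0.75, where 3 pairs allow no p below 0.25). Without the (CGA)12 pair the mean was -0.086, and in the first 100 nt alone it was 0.85, with *rps3* higher in 3 of 3 pairs (p = 0.25 in the same exact test). With SL, the share in *asc1* cells was 0.189 times that in *rps3* cells and 0.148 times that in *dom34Δ* cells, which could not be tested with 1 library each.

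The 3’-ends near the stall were then set apart from those farther downstream. In the first 36 nt, the length of the repeats, there were 4363 reads in *rps3*, 778 in *asc1* and 3428 in *dom34Δ* cells with SL, which made up 63.1% of the reads past the stall in *rps3*, 37.6% in *asc1* and 16.7% in *dom34Δ* cells. With (CGA)12 there were 3754 in *rps3* cells (43.9%) and 6015 in *dom34Δ* cells (35.9%), and with (AAA)12 3910 in *rps3* cells (81.97%) and 14679 in *dom34Δ* cells (80.1%). The *rps3* share was above the *dom34Δ* share with each reporter, by 46.4 percentage points with SL, by 7.93 with (CGA)12 and by 1.90 with (AAA)12. The mean difference was 18.7 percentage points (exact two-sided paired permutation test over 3 pairs, p = 0.25, the smallest possible), most of it from the SL pair. In the first 100 nt alone the mean was 2.65, with differences of -0.49 with SL, 10.3 with (CGA)12 and -1.88 with (AAA)12. With counts capped at the 95th percentile the differences were 18.5 with SL, -8.90 with (CGA)12 and 29.8 percentage points with (AAA)12. Without the highest position of each library the mean difference was 6.77 percentage points (p = 0.75 in the same exact test), and the (CGA)12 pair turned to 33.6% in *rps3* cells against 46.5% in *dom34Δ* cells. The SL libraries averaged 39.1% and the codon-repeat libraries 60.5% (difference -21.3 percentage points, exact two-sided permutation test, p = 0.286), and the values of both kinds of reporter overlapped. Among ends in the first 100 nt alone, this difference turned to 30.3 percentage points, and without the *dom34Δ* SL library it was -10.1.

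As a share of all reads of the library, the first 36 nt held 0.209% in *rps3*, 0.0235% in *asc1* and 0.0704% in *dom34Δ* cells with SL, and everything beyond held 0.122% in *rps3*, 0.0391% in *asc1* and 0.351% in *dom34Δ* cells. The SL libraries of *rps3* and *dom34Δ* cells thus differed in opposite directions on both sides of 36 nt, by 2.97 times near the stall and by 0.349 times beyond it (*rps3* over *dom34Δ*). With (CGA)12 the *rps3* library was higher in both parts, with 0.579% against 0.282% in *dom34Δ* cells in the first 36 nt and 0.741% against 0.503% in *dom34Δ* cells beyond. With (AAA)12 both parts were alike in size in the 2 strains, with 0.645% in *rps3* and 0.559% in *dom34Δ* cells in the first 36 nt and 0.142% in *rps3* and 0.139% in *dom34Δ* cells beyond. Whether these ratios differ between reporters was not tested, since each rests on 1 library per strain.

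**Figure D1:**
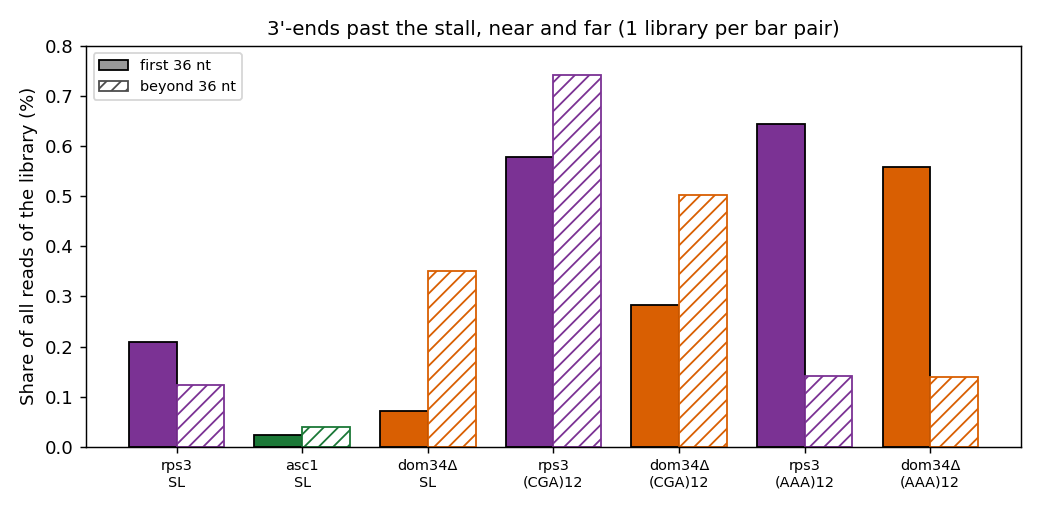
Share of all reads of each library (vertical axis, %) whose 3’-ends lay in the first 36 nt past the stall (filled bars) or beyond 36 nt (hatched bars), 1 library per pair of bars with no error bar. With SL, *rps3* cells were higher near the stall (0.209% against 0.0704% in *dom34Δ* cells) and lower beyond 36 nt (0.122% against 0.351% in *dom34Δ* cells), and with (AAA)12 both strains had most reads near the stall.

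On the SL reporter the ends fell into separate clusters. A first cluster covered 1 to 33 nt, with all the reads of the first 36 nt given above. From 34 to 82 nt, a stretch of 49 nt, not 1 read ended in any of the 3 SL libraries, which allows a share of up to 0.000144% of the reads in *rps3*, 0.000091% in *asc1* and 0.000062% in *dom34Δ* cells. The stretch without reads ran from 34 to 83 nt in *rps3*, from 32 to 87 nt in *asc1* and from 32 to 82 nt in *dom34Δ* cells, so that its edges lay within 5 nt of each other in the 3 strains. The sequence of the stem loop and its exact place in the numbering were not at hand, and whether the stretch lies inside the stem loop was not tested.

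Past the empty stretch few reads ended up to 130 nt, with 79 in *rps3*, 49 in *asc1* and 66 in *dom34Δ* cells. A second cluster followed between 131 and 260 nt. It held 2310 reads in *rps3* (33.4% of those past the stall), 1100 in *asc1* (53.1%) and 16513 in *dom34Δ* cells (80.4%), or 0.111% of the library in *rps3*, 0.0332% in *asc1* and 0.339% in *dom34Δ* cells. In *dom34Δ* cells the second cluster was the main one and its 127 reads per nt exceeded the 104 reads per nt of the first cluster. In *rps3* cells it had 17.8 reads per nt against 132 in the first cluster, and in *asc1* cells 8.46 against 23.6 in the first cluster. From 261 nt to the last listed position there were 163 reads in *rps3*, 144 in *asc1* and 525 in *dom34Δ* cells.

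The second cluster of *dom34Δ* cells exceeded the counts next to the stall. Its highest 10-nt bin, 171 to 180 nt, had 3254 reads, 2.82 times the 1154 reads in the last 10 positions up to 1040. In *asc1* cells the same bin was also the highest beyond the first 10 nt and had 170 reads, 0.630 times the 270 reads in those positions. It barely stood out, with 169 reads from 181 to 190 nt and 161 from 131 to 140 nt in *asc1* cells. In *rps3* cells the highest bin beyond the first 10 nt was at 11 to 20 nt, with 546 reads past the stall against 1482 in the last 10 positions up to 1040.

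**Figure D2:**
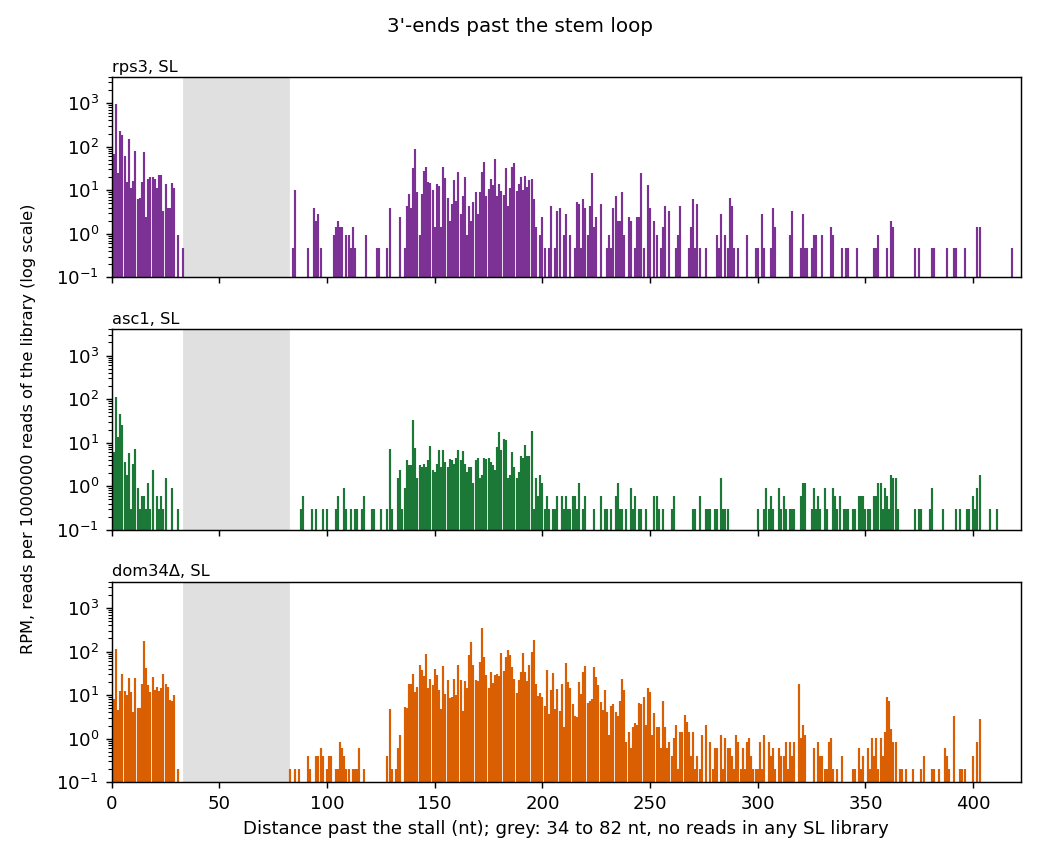
RPM (reads per 1000000 reads of the library, vertical axis, log scale) at each listed position past the stall on the SL reporter (horizontal axis, distance in nt) in *rps3*, *asc1* and *dom34Δ* cells, 1 library each. Grey marks 34 to 82 nt, where no library had a read, and the cluster from 131 to 260 nt is tallest in *dom34Δ* cells, where it held 80.4% of the reads past the stall.

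Single positions of the SL reporter also differed among the strains. At 2 nt past the stall there were 1988 reads in *rps3* cells, 364 in *asc1* cells and 549 in *dom34Δ* cells, which are 954 RPM (reads per 1000000 reads of the library) in *rps3*, 110 RPM in *asc1* and 113 RPM in *dom34Δ* cells. This was the highest position past the stall in *rps3* and *asc1* cells and the only 1 among the 10 highest of all 3 SL libraries. At 172 nt, the highest position of *dom34Δ* cells, there were 56 reads in *rps3* (26.9 RPM), 6 in *asc1* (1.81 RPM) and 1708 in *dom34Δ* cells (351 RPM). The strains thus had different leading positions.

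Other leading positions of *dom34Δ* cells had fewer reads in the other strains. Each named position was picked for being high in some library, so lower values in the other libraries are partly built in. Reads at 196 nt numbered 13 in *rps3* (6.24 RPM), 1 in *asc1* (0.302 RPM) and 883 in *dom34Δ* cells (181 RPM). Those at 167 nt numbered 4 in *rps3* (1.92 RPM), 9 in *asc1* (2.72 RPM) and 825 in *dom34Δ* cells (170 RPM). At 15 nt, inside the first cluster, there were 159 reads in *rps3* (76.3 RPM), 2 in *asc1* (0.604 RPM) and 873 in *dom34Δ* cells (179 RPM). Not all high positions went this way, as those close to the stall and at the start of the second cluster show. At 4 nt there were 475 reads in *rps3*, 154 in *asc1* and 61 in *dom34Δ* cells, and at 8 nt 320 in *rps3*, 19 in *asc1* and 122 in *dom34Δ* cells. At 5 nt the counts were 389 in *rps3* (187 RPM), 85 in *asc1* (25.7 RPM) and 149 in *dom34Δ* cells (30.6 RPM), where *rps3* cells were again the highest. At 140 nt the counts were 67 in *rps3* (32.2 RPM), 111 in *asc1* (33.5 RPM) and 146 in *dom34Δ* cells (29.997 RPM), which are close to each other as RPM. One base farther, at 141 nt, they were 186 in *rps3* (89.3 RPM), 25 in *asc1* (7.56 RPM) and 58 in *dom34Δ* cells (11.9 RPM). At 195 nt there were 37 reads in *rps3* (17.8 RPM), 61 in *asc1* (18.4 RPM) and 488 in *dom34Δ* cells (100.3 RPM), so *rps3* and *asc1* cells were alike there and *dom34Δ* cells higher.

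On the codon-repeat reporters the ends nearest to the stall lay in the first 9 nt. With (CGA)12 these 9 positions held 1429 reads in *rps3* (0.220% of the library) and 3600 in *dom34Δ* cells (0.169%), and with (AAA)12 they held 3908 in *rps3* (0.645%) and 14656 in *dom34Δ* cells (0.558%). The (CGA)12 reporter thus had 0.342 times the (AAA)12 share in *rps3* cells and 0.303 times in *dom34Δ* cells. The shape within the 9 nt was alike, with a high at 4 nt, a low at 6 nt and a second high at 7 nt in all 4 libraries. At 7 nt there were 275 reads in *rps3* (424 RPM) and 751 in *dom34Δ* cells (353 RPM) with (CGA)12. With (AAA)12 there were 762 in *rps3* (1257 RPM) and 3666 in *dom34Δ* cells (1395 RPM). The reads at 6 nt were 102 in *rps3* and 226 in *dom34Δ* cells with (CGA)12, and 78 in *rps3* and 320 in *dom34Δ* cells with (AAA)12. The same positions, 956 and 957 in the numbering, lie before the stall on the SL reporter, and there too 957 exceeded 956, with 5296 against 1056 reads in *rps3*, 13715 against 3713 in *asc1* and 6083 against 2607 in *dom34Δ* cells. The low at 956 beside 957 was thus seen on all 3 reporters. Whether these 9 nt lie before the repeat or inside it was not tested.

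The next 36 nt, from 10 to 45 nt, set the 2 repeats apart. With (CGA)12 they held 2331 reads in *rps3* cells (0.360% of the library) and 2426 in *dom34Δ* cells (0.114%). The counts were thus alike, but the share was higher in *rps3* cells. With (AAA)12 they held 2 reads in *rps3* cells (0.00033%) and 23 in *dom34Δ* cells (0.00088%). Within the (CGA)12 libraries almost all of these reads lay between 10 and 36 nt, since 37 to 45 nt had 6 reads in *rps3* and 11 in *dom34Δ* cells. The edges of this stretch were set after the counts were seen, so its length, equal to that of the repeats, is no finding. The exact place of the repeats in the numbering was not stated, and how reads inside a repeat were placed by the alignment was not tested.

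A pattern of 3 nt ran through the (CGA)12 reads of this stretch. At each of the 9 distances 12, 15, 18 and so on to 36 nt the count exceeded both neighbours in *rps3* and in *dom34Δ* cells. These positions leave remainder 2 when divided by 3, and they held 82.8% of the reads from 10 to 36 nt in *rps3* and 54.0% in *dom34Δ* cells. The share in *rps3* cells owed much to 1 position, since at 21 nt there were 1326 reads in *rps3* (2046 RPM) and 177 in *dom34Δ* cells (83.1 RPM). Without the highest position of the stretch in each library the shares were 60.1% in *rps3* and 48.9% in *dom34Δ* cells. At 24 nt there were 349 reads in *rps3* (538 RPM) and 241 in *dom34Δ* cells (113 RPM). With (AAA)12 there were 0 reads at 21 nt in *rps3* and 1 in *dom34Δ* cells.

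Just past this stretch, at 46 to 50 nt, the (CGA)12 libraries had their densest ends. There were 2639 reads in *rps3* cells (0.407% of the library and 30.8% of the reads past the stall) and 6748 in *dom34Δ* cells (0.317% and 40.3%) in these 5 nt, against 0 reads in *rps3* and 29 in *dom34Δ* cells with (AAA)12. At 47 nt there were 909 reads in *rps3* (1402 RPM) and 3801 in *dom34Δ* cells (1784 RPM). At 49 nt there were 998 in *rps3* (1540 RPM) and 2074 in *dom34Δ* cells (974 RPM), so *rps3* cells were higher there as RPM. At 46 nt there were 506 reads in *rps3* (781 RPM) and 451 in *dom34Δ* cells (212 RPM). The highest of these positions thus lay at 49 nt in *rps3* cells, and in *dom34Δ* cells at 47 nt, where it was the highest of all positions past the stall.

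From 51 nt on, reads were spread thinly with both repeats. With (CGA)12 there were 2158 reads in *rps3* (0.333% of the library) and 3963 in *dom34Δ* cells (0.186%), and with (AAA)12 860 in *rps3* (0.142%) and 3624 in *dom34Δ* cells (0.138%). The (CGA)12 share was 2.35 times the (AAA)12 share in *rps3* cells and 1.35 times in *dom34Δ* cells, the opposite direction to that in the first 9 nt. The highest position from 51 nt on was 69 nt in all 4 libraries. It had 80 reads in *rps3* (123 RPM) and 192 in *dom34Δ* cells (90.1 RPM) with (CGA)12. With (AAA)12 it had 76 in *rps3* (125 RPM) and 113 in *dom34Δ* cells (43.0 RPM). Farther than 150 nt there were 795 reads in *rps3* (0.123% of the library) and 1209 in *dom34Δ* cells (0.0568%) with (CGA)12. With (AAA)12 there were 79 in *rps3* (0.0130%) and 1054 in *dom34Δ* cells (0.0401%), so the *rps3* (AAA)12 library had few ends that far.

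**Figure D3:**
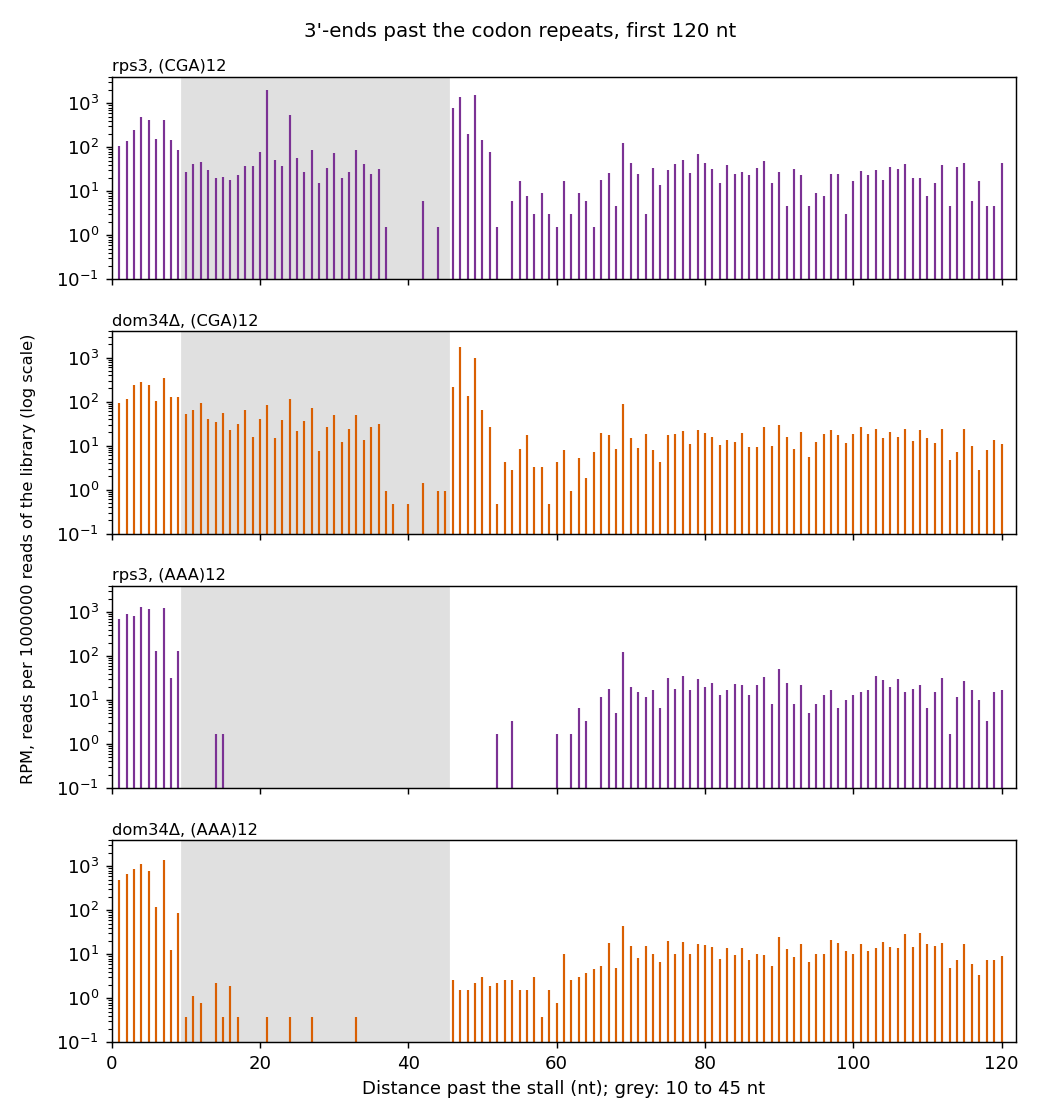
RPM (reads per 1000000 reads of the library, vertical axis, log scale) at each listed position in the first 120 nt past the stall (horizontal axis) on the (CGA)12 and (AAA)12 reporters in *rps3* and *dom34Δ* cells, 1 library each. Grey marks 10 to 45 nt. With (CGA)12 this stretch held 2331 reads in *rps3* (0.360% of the library) and 2426 in *dom34Δ* cells (0.114%). With (AAA)12 it held 2 in *rps3* and 23 in *dom34Δ* cells, and the positions at 46 to 50 nt are high with (CGA)12 only.

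How far the ends reached followed from these clusters. The median distance past the stall was 8 nt in *rps3*, 144 nt in *asc1* and 172 nt in *dom34Δ* cells with SL, 47 nt in both strains with (CGA)12 and 5 nt in both strains with (AAA)12. Since the SL ends lie in separate clusters, the median of these libraries tells on which side of the empty stretch most reads fell. The mean difference between *rps3* and *dom34Δ* was -54.7 nt (exact two-sided paired permutation test over 3 pairs, p = 1), all of it from the SL pair. SL libraries averaged 108 nt and codon-repeat libraries 26 nt (difference 82 nt, exact two-sided permutation test, p = 0.171), with overlapping values, and in the first 100 nt alone the difference was -13.9 nt. It was 132 nt without the *rps3* SL library and 50 nt without that of *dom34Δ* cells.

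The distance within which 90% of the reads past the stall ended varied less. It was 191 nt in *rps3*, 199 nt in *asc1* and 220 nt in *dom34Δ* cells with SL, 146 nt in *rps3* cells against 124 nt in *dom34Δ* cells with (CGA)12, and 91 nt in *rps3* cells against 110 nt in *dom34Δ* cells with (AAA)12. The last listed position was at 418 nt in *rps3*, 411 nt in *asc1* and 403 nt in *dom34Δ* cells with SL, with 1 read in *rps3*, 1 in *asc1* and 14 in *dom34Δ* cells. With (CGA)12 it was at 343 nt in both strains, with 9 reads in *rps3* and 3 in *dom34Δ* cells, and with (AAA)12 at 332 nt with 7 reads in *rps3* and at 343 nt with 4 reads in *dom34Δ* cells. The last listed positions thus lay close together among libraries of 1 reporter, whereas the last positions with at least 10 reads did not. These were at 287 nt in *rps3*, 195 nt in *asc1* and 403 nt in *dom34Δ* cells with SL, at 326 nt in *rps3* cells against 332 nt in *dom34Δ* cells with (CGA)12, and at 124 nt in *rps3* cells against 280 nt in *dom34Δ* cells with (AAA)12. The 2 libraries in which these positions stopped earliest, *asc1* with SL and *rps3* with (AAA)12, also had the fewest reads past the stall.

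**Figure D4:**
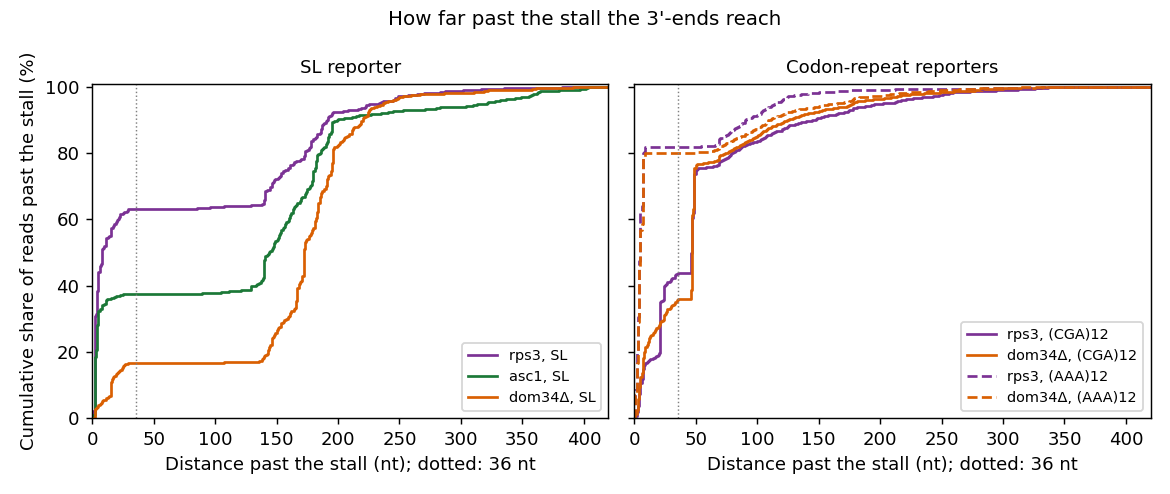
Cumulative share of the reads past the stall (vertical axis, %) against distance past the stall (horizontal axis, nt) for the 3 SL libraries (left) and the 4 codon-repeat libraries (right; dashed lines are (AAA)12), with a dotted line at 36 nt. At 36 nt the SL curves stand at 63.1% in *rps3*, 37.6% in *asc1* and 16.7% in *dom34Δ* cells, and the (CGA)12 curves climb steeply at 46 to 50 nt.

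The reads past the stall were concentrated in few positions. The 10 highest positions held 58.8% of them in *rps3*, 47.7% in *asc1* and 35.03% in *dom34Δ* cells with SL, 61.2% in *rps3* and 57.0% in *dom34Δ* cells with (CGA)12, and 83.8% in *rps3* and 80.8% in *dom34Δ* cells with (AAA)12. The *rps3* share was higher with each reporter, by 23.8 percentage points with SL, 4.17 with (CGA)12 and 2.94 with (AAA)12 (mean 10.3, exact two-sided paired permutation test over 3 pairs, p = 0.25, the smallest possible). The mean was 3.55 without the SL pair, 4.07 from 10 nt farther downstream and 0.36 from 83 nt with SL and 46 nt with the codon repeats. The direction did not hold in every pair. From 10 nt farther the differences were -3.89 with SL, 4.18 with (CGA)12 and 11.9 percentage points with (AAA)12. From 83 or 46 nt they were -3.96 with SL, -6.82 with (CGA)12 and 11.9 percentage points with (AAA)12. The SL libraries averaged 47.2% and the codon-repeat libraries 70.7% (difference -23.5 percentage points, exact two-sided permutation test, p = 0.114). The *rps3* value with SL exceeded the *dom34Δ* value with (CGA)12, so both kinds of reporter overlapped, and in the first 100 nt alone the difference was 3.66 percentage points.

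The highest single position held 28.7% of the reads past the stall in *rps3*, 17.6% in *asc1* and 8.32% in *dom34Δ* cells with SL, 15.5% in *rps3* and 22.7% in *dom34Δ* cells with (CGA)12, and 16.8% in *rps3* and 20.0% in *dom34Δ* cells with (AAA)12. With SL the *rps3* library was the most concentrated by this measure and the *dom34Δ* library the least, and with the codon repeats the order of the strains was the opposite. Positions with a single read made up 23.8% of the listed positions in *rps3*, 40.9% in *asc1* and 17.6% in *dom34Δ* cells with SL, 15.6% in *rps3* and 10.5% in *dom34Δ* cells with (CGA)12, and 34.2% in *rps3* and 14.3% in *dom34Δ* cells with (AAA)12. The number of listed positions grows with depth. If every library had the 2071 reads of the *asc1* library, the expected number would be 163 in *rps3*, 232 in *asc1* and 180 in *dom34Δ* cells with SL, 214 in *rps3* and 206 in *dom34Δ* cells with (CGA)12, and 113 in *rps3* and 163 in *dom34Δ* cells with (AAA)12. At equal depth the *asc1* library thus had the most listed positions and the *rps3* (AAA)12 library the fewest. This counts positions with a single read in full. By the share of the 10 highest positions, the *dom34Δ* SL reads were the least concentrated (35.03% against 47.7% in *asc1* cells).

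Ribosomes move 1 codon of 3 nt at a time, so the remainder of the position divided by 3 was compared, although the reading frame of the numbering was not stated. Past the stall, remainder 1 led in *rps3* (54.8%) and *asc1* cells (47.2%) with SL and remainder 0 in *dom34Δ* cells with SL (39.3%). With (CGA)12, remainder 0 led in *rps3* (37.2%, with remainder 2 at 36.5%) and remainder 1 in *dom34Δ* cells (40.8%), and with (AAA)12 remainder 0 led in *rps3* (48.0%) and *dom34Δ* cells (50.99%). No single remainder led in all libraries, unlike before the stall, where, from position 606 on, remainder 1 led in all 7 with between 39.7% and 52.2% of the reads.

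The leading share depended on single positions. Without its highest position, remainder 1 had 36.5% in *rps3* and 35.9% in *asc1* cells with SL, and remainder 0 had 33.8% in *dom34Δ* cells with SL. The lead in *dom34Δ* cells with SL then passed to remainder 1 (35.7%). With (CGA)12, remainder 0 then led with 44.0% in *rps3* and 46.03% in *dom34Δ* cells, where remainder 1 had 23.4%. With (AAA)12, remainder 1 led in *rps3* cells (37.9%, with remainder 0 at 37.5%) and remainder 0 in *dom34Δ* cells (38.7%). Counted by listed positions in place of reads, each remainder had between 30.04% and 34.98% in every library. The leading share differed by 2.94 percentage points between *rps3* and *dom34Δ* (exact two-sided paired permutation test over 3 pairs, p = 1) and by 2.85 percentage points between SL and codon-repeat libraries (exact two-sided permutation test, p = 0.629), and both differences changed sign without the highest positions.

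**Figure D5:**
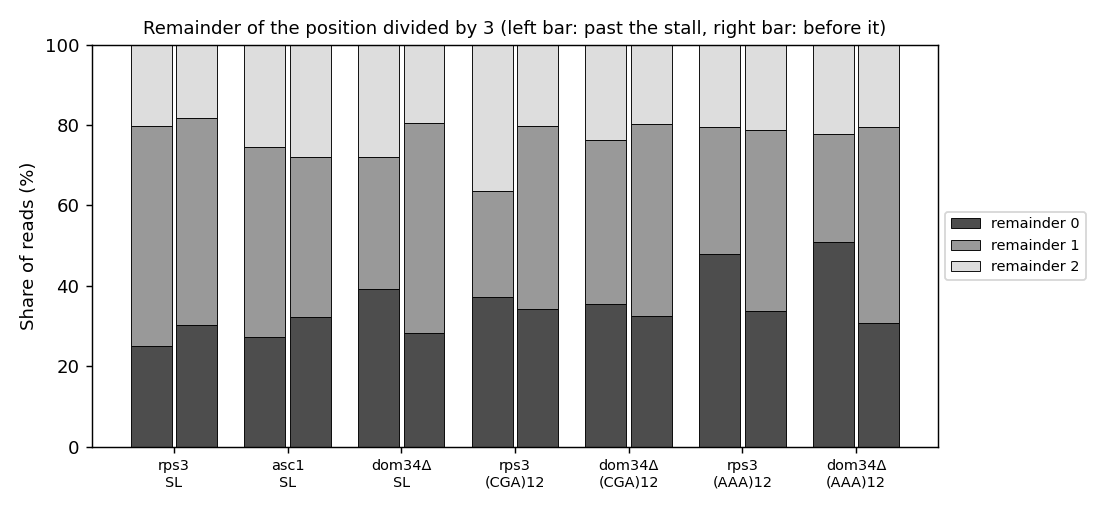
Share of reads (vertical axis, %) by the remainder of the position divided by 3, past the stall (left bar of each pair) and from position 606 up to it (right bar), for the 7 libraries. Remainder 1 led before the stall in all 7, while past it remainder 1 led in 3 libraries and remainder 0 in 4.

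Counts at the same position were positively correlated between libraries of the same reporter. The Spearman correlation of counts over positions past the stall was 0.74 between *rps3* and *dom34Δ* (418 positions), 0.64 between *asc1* and *dom34Δ* (411 positions) and 0.58 between *rps3* and *asc1* (418 positions) with SL. Between *rps3* and *dom34Δ* it was 0.76 with (CGA)12 and 0.72 with (AAA)12 (343 positions each). These are descriptions across positions, which are not independent replicates, and the libraries share the reporter, the primer and the adaptor. Beyond the empty or sparse stretches (from 83 nt with SL and from 51 nt with the codon repeats), the values were between 0.50 and 0.70. In the first 36 nt with SL they were 0.61 between *rps3* and *dom34Δ*, 0.47 between *asc1* and *dom34Δ* and 0.82 between *rps3* and *asc1*. Between *rps3* and *dom34Δ* they were 0.76 with (CGA)12 and 0.83 with (AAA)12 in the first 36 nt.

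The overlap of the highest positions was then counted. Of the 10 highest positions, *rps3* shared 2 with *dom34Δ* and 3 with *asc1*, and *asc1* shared 2 with *dom34Δ* with SL, while *rps3* and *dom34Δ* shared 8 with (CGA)12 and 9 with (AAA)12. The 8 shared with (CGA)12 were at 3, 4, 5, 7, 46, 47, 48 and 49 nt. The 9 shared with (AAA)12 were at 1 to 7, 9 and 69 nt. Between the (CGA)12 and (AAA)12 reporters, which share the threshold of 950, the correlation was 0.46 in *rps3* and 0.59 in *dom34Δ* cells over 343 positions, and 0.59 in *rps3* and 0.84 in *dom34Δ* cells from 51 nt on. Over the first 100 nt it was 0.24 in *rps3* and 0.23 in *dom34Δ* cells, the stretch that holds the difference at 10 to 50 nt.

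At the threshold itself, the 3 positions past it had 145, 1988 and 53 reads in *rps3*, 20, 364 and 45 in *asc1* and 40, 549 and 22 in *dom34Δ* cells with SL. The 3 positions up to and including 1040 had 214, 100 and 87 reads in *rps3*, 22, 10 and 19 in *asc1* and 122, 115 and 93 in *dom34Δ* cells. With (CGA)12 the 3 positions past it had 70, 90 and 159 reads in *rps3* and 197, 241 and 523 in *dom34Δ* cells, and the 3 up to 950 had 174, 110 and 91 in *rps3* and 324, 286 and 431 in *dom34Δ* cells. With (AAA)12 the 3 past it had 410, 559 and 485 in *rps3* and 1308, 1724 and 2317 in *dom34Δ* cells, and the 3 up to 950 had 619, 674 and 515 in *rps3* and 2487, 2899 and 2442 in *dom34Δ* cells. With SL the position at 2 nt stood out in all 3 strains, and in *dom34Δ* cells the other 2 positions past the stall were below the 3 before it. Over 36 nt on each side, reads past the stall were 27.5% of those before it in *rps3*, 8.73% in *asc1* and 42.3% in *dom34Δ* cells with SL, 9.62% in *rps3* and 6.35% in *dom34Δ* cells with (CGA)12, and 13.3% in *rps3* and 12.4% in *dom34Δ* cells with (AAA)12.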

How the data were processed

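Total RNA was ligated to an adaptor, amplified from position 585 of PGK1 and sequenced on an Illumina HiSeq. The authors removed adaptors with cutadapt and mapped the reads with NovoAlign to the sequence of the reporters. The submitters' processing notes give cutadapt 1.12 and SAMtools 1.13 and list bedtools without a version. Alignment settings and any removal of duplicates were not given in the sources used here. As deposited, the values were raw counts of 3’-ends at each position (whole numbers), and unlisted positions were taken as 0. Depth ranged from 606108 to 4867111 reads.

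Shares have 95% Wilson intervals. The *rps3* and *dom34Δ* libraries were compared over the 3 reporters with exact paired permutation tests, and SL with codon-repeat libraries with exact permutation tests, neither of which can fall below 0.05. The SL and codon-repeat tests ignore strain, and *asc1* occurs with SL only, so they describe the libraries at hand. The statistics were tested on simulated data. Named are the 5 highest positions of each library, those among the 10 highest in all libraries of a reporter, the last listed positions and 3 positions on each side of the threshold. The positions at 6 and 69 nt and all stretches other than the first 36 nt were chosen after their values were seen. The members and lists were chosen with earlier results of these data known. Alternatives were other windows, starts, denominators and count minimums, capped counts, libraries without their highest position and each library or pair left out. Python 3.11.15, NumPy 2.4.6, SciPy 1.17.1, pandas 2.3.3 and matplotlib 3.10.9 were used.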

Additional observations from a re-analysis of the deposited data

Results flagged for a closer look

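The share of reads past the stall in *rps3* over *dom34Δ* cells ran in opposite directions between reporters, with log2 ratios of -0.35 with SL, 0.75 with (CGA)12 and 0.17 with (AAA)12. The same held for the share of library reads beyond 36 nt, with log2 ratios of -1.52 with SL, 0.56 with (CGA)12 and 0.030 with (AAA)12. With 1 library per strain and reporter, the difference between reporters was not tested.

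Reads were also listed at positions before the primer at 585. The comparisons did not use these positions, but their reads are part of the library totals behind the shares and RPM. There were 617 with SL in *rps3* and 146 in *dom34Δ* cells, against 0 in *asc1* cells, 22 in *rps3* and 5 in *dom34Δ* cells with (CGA)12, and 10 in *rps3* and 22 in *dom34Δ* cells with (AAA)12.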

How the results depend on the processing

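Of 114 alternative values of the 10 tested results, 95 kept their direction, 18 were reversed, 1 fell to 0 and none had an exact p under 0.05. The log2 ratio of *rps3* over *dom34Δ* in the share past the stall was -0.15 from 10 nt farther, -0.31 from 46 nt (codon repeats) or 83 nt (SL), -0.28 relative to the 100 nt before the stall, and between -0.086 (without (CGA)12) and 0.46 with 1 pair left out. SL against codon repeats became 1.32 relative to the 100 nt before the stall. In the first 100 nt alone, SL minus codon repeats was 30.3 percentage points for the first 36 nt, -13.9 nt for the median and 3.66 percentage points for the 10 highest positions. Leaving out 1 pair gave a median difference between the strains of -82 to 0 nt (0 without SL).

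The leading remainder, *rps3* minus *dom34Δ*, was -0.69 percentage points without the highest positions, -0.60 with capped counts, -2.75 from 10 nt farther, -1.25 from 46 or 83 nt and -3.30 (without SL) to 6.21 with 1 pair left out. SL minus codon repeats was -5.61, -2.14, -2.17 and -4.41 under the same 4 settings and -0.98 (without *rps3* with SL) to 6.73 with 1 library left out. The start at 46 or 83 nt was chosen after seeing the data, as were the alternatives for *asc1*. The *asc1* share was 0.218, 0.225 and 0.112 times that of *rps3*, and 0.133, 0.126 and 0.335 times that of *dom34Δ* cells, without the highest position, with capped counts and in the first 100 nt.

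In the order *rps3* with *dom34Δ*, *asc1* with *dom34Δ* and *rps3* with *asc1* (SL), *rps3* with *dom34Δ* ((CGA)12, then (AAA)12), and (CGA)12 with (AAA)12 (*rps3*, then *dom34Δ*), the correlations were 0.76, 0.67, 0.72, 0.81, 0.83, 0.51 and 0.59 as Pearson values of log2(count + 1), 0.58, 0.51, 0.44, 0.70, 0.77, 0.33 and 0.41 over positions with at least 3 reads, and 0.90, 0.77, 0.77, 0.86, 0.90, 0.24 and 0.23 over the first 100 nt. In the first 100 nt, SL had no reads from 34 to 82 nt and (AAA)12 had few from 10 to 50 nt. Shared counts of 0 there raise the correlations between strains with SL and (AAA)12. No paired analysis was possible by replicate number, as opposed to the pairing by reporter used above, because each condition has 1 library and the labels give no replicate numbers. The *asc1* library, with 2071 reads past the stall, sets the coarsest precision.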
